A study of Mus musculus with 4 samples.

Results

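Cajal bodies are compartments of the nucleus in which small nuclear ribonucleoproteins (snRNPs), the RNA-protein building blocks of the spliceosome, pass their last steps of maturation. The 10 genes described here encode a set of Cajal body components and of factors that carry spliceosomal snRNAs through this cycle: Coil, Sart3, Wrap53, Tgs1, Phax, Snupn, Nolc1, Fbl, Nop56 and Gar1. They were chosen by function and matched by symbol, and all 10 were found among the 37718 gene rows of the count files. They held 202 of 359565 exon segments, 114 of 240574 annotated splice junctions, 3 of 5005 unannotated junctions and 98 of 207562 introns.

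RNA was measured in 4 samples of diplotene cells from mouse testes at 20 days post partum (dpp), 2 from Tdrd6+/- and 2 from Tdrd6-/- mice. The paper describes such preparations as mostly, but not only, diplotene cells, and it also scored secondary spermatocytes and round spermatids in them. Each sample was a pool of at least 4 mice. The controls were heterozygous and so also carried a disrupted Tdrd6 allele, and wild-type cells are not part of the comparison. All cells were purified with magnetic beads through a human CD4 (hCD4) surface reporter driven by the endogenous Tdrd6 promoter, so cells were selected by activity of this promoter. Total RNA depleted of ribosomal RNA was sequenced, which retains unspliced transcripts. The comparison asks whether the genes that serve snRNP maturation were themselves expressed or spliced differently when TDRD6, a Tudor domain protein of male germ cells, was missing.

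In the textbook view of the snRNA cycle, the Integrator complex cleaves the nascent snRNA, and PHAX, an adaptor bound to the cap binding complex, hands it to the export receptor XPO1. In the cytoplasm the SMN complex loads the Sm ring, TGS1 hypermethylates the cap to trimethylguanosine, and SNUPN (snurportin) reads this cap and returns the particle to the nucleus. In the Cajal body, held together by coilin, small guide RNAs direct the modification of snRNAs. C/D box guides work with the methyltransferase fibrillarin (FBL) and with NOP56, H/ACA box guides work with dyskerin (DKC1), NOP10, NHP2 and GAR1 in pseudouridylation, and WRAP53 keeps the guide RNAs in the Cajal body. SART3 rejoins U4 and U6 snRNA, and NOLC1 is a shuttling phosphoprotein that binds the guide RNP proteins. A newly made H/ACA particle carries NAF1 in the place that GAR1 takes when the particle matures.

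Gar1 and Nop56 are the members for which sequence helps to see what was counted. Gar1 lies at chr3:129824912-129831396 of mm10 on the minus strand, and its spliced transcript was followed at the junctions whose flanking exons are coding on both sides. The 20 bases on each side of these junctions are given 5′ to 3′ from the GENCODE M21 transcript Gar1-201, and the capitals mark the bases that meet when the intron is removed.
Gar1 exon 2 to exon 3: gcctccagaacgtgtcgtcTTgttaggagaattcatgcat
Gar1 exon 3 to exon 4: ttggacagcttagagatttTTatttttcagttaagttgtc
Gar1 exon 4 to exon 5: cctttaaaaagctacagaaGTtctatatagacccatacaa
Gar1 exon 5 to exon 6: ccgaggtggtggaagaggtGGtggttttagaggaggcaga

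Nop56, at chr2:130274430-130279313 on the plus strand, hosts small nucleolar RNAs (snoRNAs) in its introns, of which all but Snord110 were merged into its row of the count files. Its row is therefore a count of Nop56 together with these short RNAs. Their sequences are shown because they are guide RNAs of the C/D and H/ACA kinds that the member proteins bind. Capitals mark the core of the C box (GATG) and the D box (CTGA), or, in Gm24451, the ACA that stands 3 bases from the end of an H/ACA RNA.
Snord110, chr2:130275506-130275573: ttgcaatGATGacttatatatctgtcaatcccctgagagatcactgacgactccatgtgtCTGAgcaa
Gm24451, chr2:130276237-130276369: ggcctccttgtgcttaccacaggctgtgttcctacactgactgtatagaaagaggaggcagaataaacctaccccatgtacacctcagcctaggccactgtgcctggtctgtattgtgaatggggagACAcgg
Gm23187, chr2:130277195-130277280: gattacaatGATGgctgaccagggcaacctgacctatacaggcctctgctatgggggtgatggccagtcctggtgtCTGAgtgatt
Gm23650, chr2:130277697-130277766: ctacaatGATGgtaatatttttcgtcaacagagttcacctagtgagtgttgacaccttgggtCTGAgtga
Snord57, chr2:130278016-130278087: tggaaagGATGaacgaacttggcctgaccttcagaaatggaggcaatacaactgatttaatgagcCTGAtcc

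Among 1507 annotated mouse snoRNAs, 24% held GATG within the first 20 bases together with CTGA within the last 15 bases, and 18.3% held ACA at 3 bases from the end, on the transcribed strand only. Fragments on the exon segments that overlap the snoRNAs were few. The 3 segments over Gm23187 together had 23 and 13 counts in Tdrd6+/- and 16 and 13 in Tdrd6-/- cells, and the segment over Snord57 had 3 and 1 against 3 and 1. Snord110 has a row of its own, which was at 0 in all 4 samples. Short RNAs of this size are poorly recovered in libraries made from fragmented long RNA, and no level of the guide RNAs was read from these counts.

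The files held 26454326 to 31388750 gene counts and 9603669 to 13937818 intron counts per sample. Tdrd6, the disrupted gene, had 33220 and 39322 counts in Tdrd6+/- and 359 and 400 in Tdrd6-/- cells, and its log2 fold change was -6.81 (standard error, SE, 0.17, adjusted p = 8.4e-18, edgeR). Of 8 markers of mid to late prophase I, Sycp1 was called higher (log2 fold change 0.60, adjusted p = 0.0467, edgeR) and Piwil1 lower (-0.44, adjusted p = 0.0773, edgeR), and their summed level was 8630 and 9008 CPM (gene counts divided by TMM-scaled library size) in Tdrd6+/- against 8988 and 10291 in Tdrd6-/- cells. Defining spermatid genes were at or near 0, with Prm1 at 0, 0, 0 and 4 counts and Tnp1 at 0, 3, 10 and 9 (Tdrd6+/- 1 and 2, then Tdrd6-/- 1 and 2), although the summed level of 6 spermatid markers was 4.24 and 6.50 CPM against 10.7 and 9.22 and 1 of the 2 tested, Acrv1, was called higher. No marker of spermatogonia and early meiosis (5 genes) was called. Their summed level was 21.1 and 19.6 CPM in Tdrd6+/- against 24.2 and 28.1 in Tdrd6-/- cells. Stra8 among them was near a call (log2 fold change 0.92, adjusted p = 0.109, edgeR). No marker of Sertoli (5, 28.6 to 36.9 CPM summed), Leydig (4, 15.8 to 20.3 CPM), macrophage (3, 2.62 to 5.25 CPM) or peritubular cells (2, 2.64 to 3.61 CPM) was called. The share of tallied fragments on introns was 30.95% and 27.11% in Tdrd6+/- and 27.43% and 21.94% in Tdrd6-/- cells, lowest in the second Tdrd6-/- sample.

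Of the 10 genes, Gar1 alone passed the test of gene expression, and it fell. The test was edgeR's quasi-likelihood test on gene counts at a false discovery rate of 0.1 over all 16555 genes tested, of which 4.8% were called (3.78% lower and 1.02% higher in Tdrd6-/- cells). All 10 members passed the filter on low counts. Their median log2 fold change was 0.0241, beside 0.0123 for all genes tested, with 5 members above and 5 below 0. In these bulk samples fewer cells of a type and less RNA per cell cannot be told apart.

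**Figure D1:**
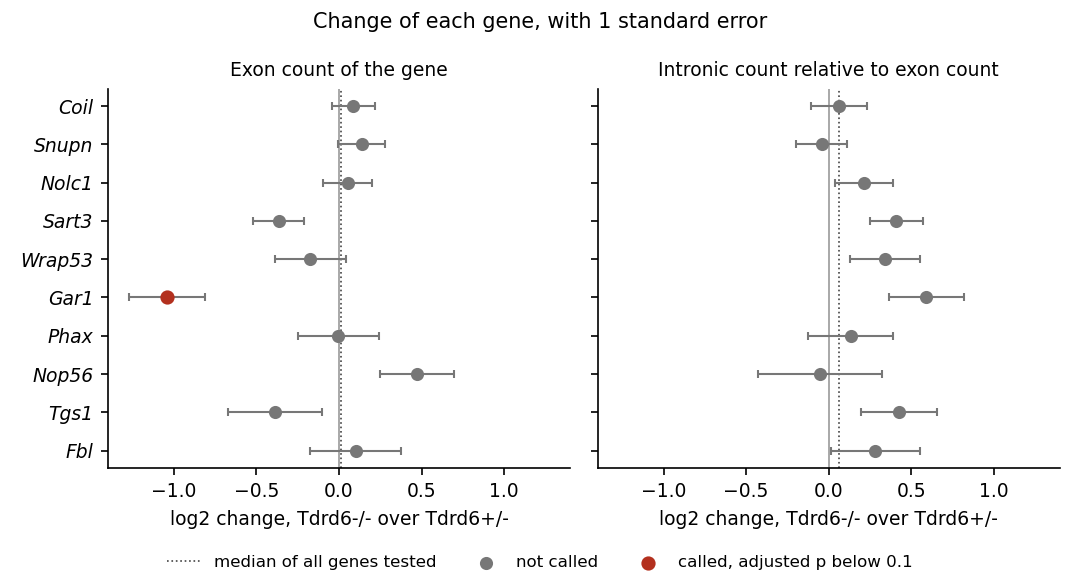
Log2 change, Tdrd6-/- over Tdrd6+/-, of gene expression (left) and of the intron-to-exon ratio (right) for the 10 genes. Bars are 1 standard error, derived from edgeR's F statistic (2 samples per genotype), and a dotted line marks the median of all genes tested. On the left Gar1 lies at -1.04, the member called at a false discovery rate of 0.1, with the remaining values between -0.39 and 0.47, and on the right no gene is called.

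Gar1 had 220 and 255 counts in Tdrd6+/- and 133 and 138 in Tdrd6-/- cells, or 8.40 and 9.15 against 4.21 and 4.31 CPM. The groups did not overlap, and the mean went from 8.78 ± 0.532 to 4.26 ± 0.075 CPM (SD, n = 2 each). The log2 fold change was -1.04 (SE 0.231, adjusted p = 0.0122, edgeR), or 0.485 of the control level. Of the 625 genes called lower, 115 had a larger fold change than Gar1. DESeq2 gave an adjusted p of 0.00402, and with each sample left out in turn edgeR gave 0.026 to 0.073, so the call was kept. Without the filter on low counts the adjusted p was 0.158 and the call was lost, with 75 genes called in all.

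Lower counts were seen at the coding junctions of the spliced Gar1 transcript, which are parts of the gene count that was called. The junctions printed above had 24 and 30 counts in Tdrd6+/- against 9 and 17 in Tdrd6-/- cells (exon 2 to 3), 24 and 30 against 14 and 20 (exon 3 to 4), 26 and 29 against 11 and 14 (exon 4 to 5), and 14 and 19 against 6 and 8 (exon 5 to 6). At each of these junctions both Tdrd6-/- samples lay below both Tdrd6+/- samples, and the 4 summed to 88 and 108 against 40 and 59. The introns removed there span chr3:129829492-129830594, chr3:129828965-129829336, chr3:129826975-129828904 and chr3:129825617-129826823. Exon segments with more counts showed the same order. Segment E003 had 91 and 100 against 58 and 55 counts, E010 had 52 and 69 against 30 and 31, and E012 had 58 and 65 against 27 and 33. Junction J019, from exon 6 to 7, had 31 and 30 against 25 and 12 counts, uneven between the Tdrd6-/- samples. Features near the 5′ end were not lower, but had too few counts to compare. Junction J026, between the first exons, carried 2 and 3 against 3 and 6 counts. Segment E016 had 7 and 6 against 8 and 8, and E017 had 3 and 6 against 5 and 9.

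**Figure D2:**
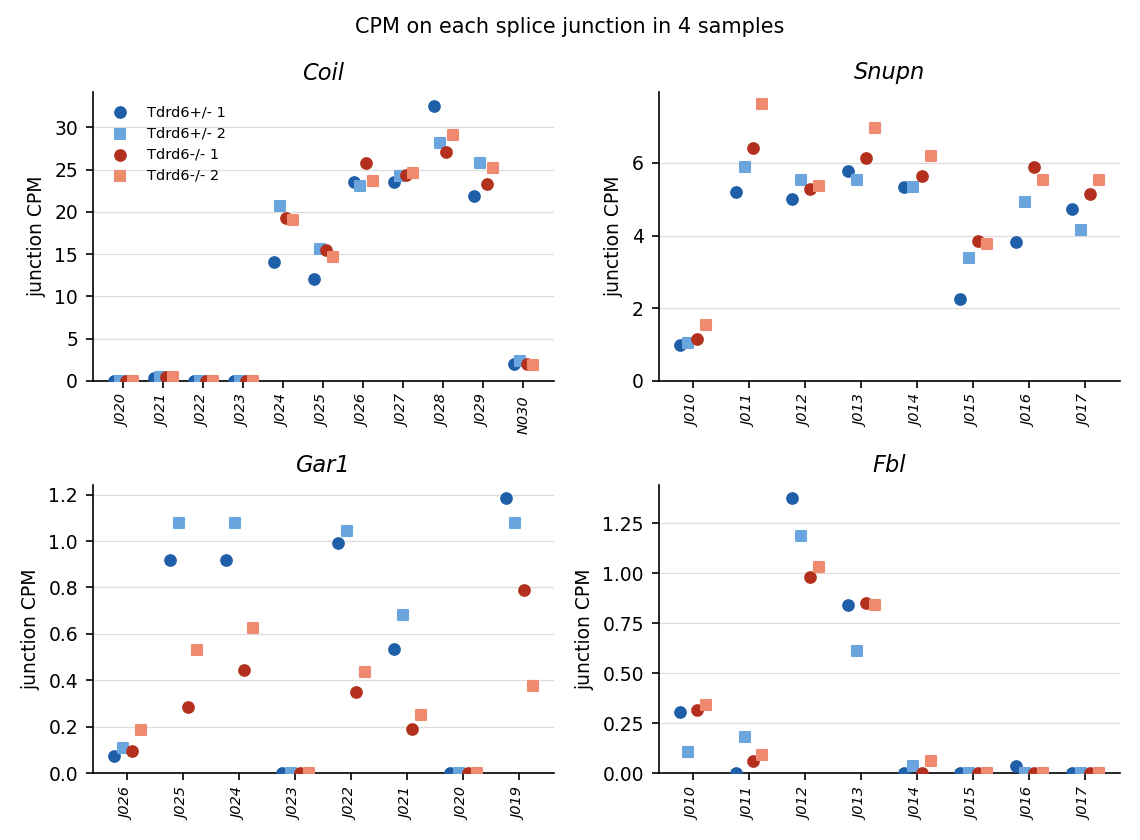
CPM (counts scaled by the gene's scaling factors) on each splice junction of Coil, Snupn, Gar1 and Fbl, with 1 point per sample coloured by genotype. The horizontal axis lists the junctions by their number in the files, reversed for Gar1 to follow its transcript. In Gar1 the Tdrd6-/- points of junctions J025, J024, J022 and J021, the coding junctions, lie between 0.19 and 0.625 CPM and the Tdrd6+/- points between 0.535 and 1.08 CPM.

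The introns of Gar1 were counted separately. Their summed count was 184 and 180 in Tdrd6+/- and 136 and 120 in Tdrd6-/- cells, which after scaling to the intron counts of each sample was 14.7 and 14.96 against 10.1 and 11.8 CPM. The most covered of them, intron 003, had 72 and 69 against 49 and 42 counts. Intron 002 had 33 and 39 against 34 and 29, and its groups overlapped. The deposited counts are raw and the samples differ in depth, so that single counts compare only roughly.

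GAR1 works in a complex, and its partners were examined together with it. Of 5 further H/ACA RNP proteins and assembly factors, Naf1 was called lower and none higher, with a median log2 fold change of 0.268. Naf1, whose product occupies the GAR1 site on immature H/ACA particles, had 620 and 636 counts in Tdrd6+/- and 521 and 461 in Tdrd6-/- cells, or 23.7 and 22.8 against 16.5 and 14.4 CPM. The groups did not overlap, and the log2 fold change was -0.59 (SE 0.178, adjusted p = 0.0778, edgeR, and 0.0433 with DESeq2). With a sample left out the log2 fold change stayed between -0.69 and -0.49, but the call was lost each time (adjusted p = 0.1 to 0.673, edgeR) and without the filter on low counts (0.337).

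The other genes of this list, named here after their values were seen, were not called. Dkc1, the pseudouridine synthase itself, had 33 and 34 counts in Tdrd6+/- and 53 and 42 in Tdrd6-/- cells, with a log2 fold change of 0.27 (adjusted p = 0.821, edgeR). Nop10, a small core subunit, had 1981 and 2310 against 2783 and 3563 counts and a log2 fold change of 0.33 (SE 0.143, adjusted p = 0.282, edgeR). Nhp2, which binds the guide RNA with them, had 227 and 191 against 227 and 329 counts (log2 fold change 0.17, adjusted p = 0.836, edgeR). Shq1, a chaperone of dyskerin, had 81 and 118 against 139 and 174 counts (0.42, adjusted p = 0.528, edgeR). Within the H/ACA group the values thus lay on both sides of 0, with Gar1 and Naf1 below and the 4 remaining genes above. The difference between Gar1 and these genes was not tested.

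**Figure D3:**
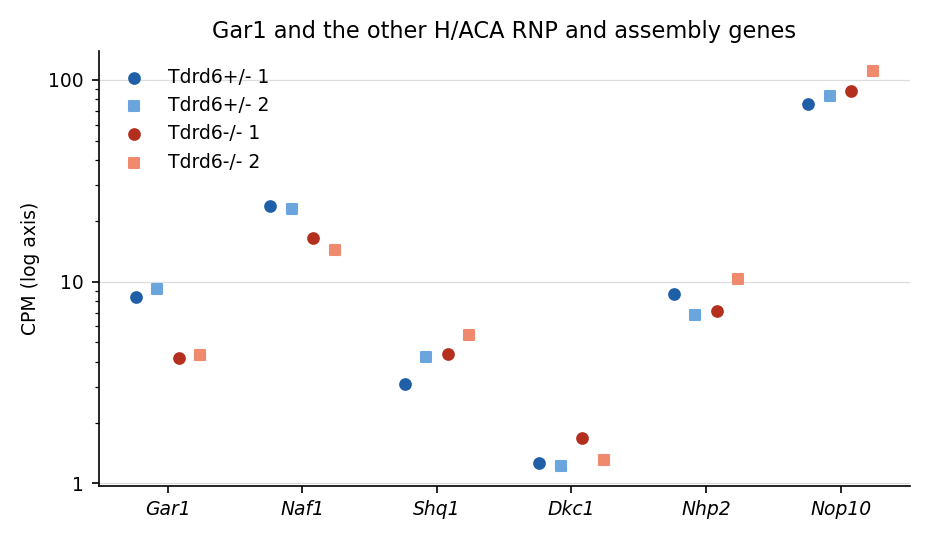
CPM of Gar1 and the 5 further H/ACA genes in each of the 4 samples, on a log axis, with 1 point per sample coloured by genotype. The Tdrd6-/- points of Gar1 (4.21 and 4.31 CPM) and Naf1 (16.5 and 14.4 CPM) lie below their Tdrd6+/- points.

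The C/D box partners in the set, Fbl and Nop56, were not called. Fbl (chr7:28169710-28179269, plus strand), the methyltransferase, had few counts, 83 and 76 in Tdrd6+/- and 103 and 98 in Tdrd6-/- cells. At 3.17 and 2.73 against 3.26 and 3.06 CPM the groups overlapped, and the log2 fold change was 0.10 (SE 0.276, adjusted p = 0.924, edgeR). Nop56 had 195 and 167 against 285 and 308 counts, or 7.45 and 5.995 against 9.01 and 9.62 CPM. Its Tdrd6-/- samples lay above the controls, but the log2 fold change of 0.47 (SE 0.223) did not pass (adjusted p = 0.344, edgeR, and 0.285 to 0.879 with a sample left out). Nop56 overlaps the end of Idh3b on the opposite strand only over its last bases, where segments E067 and E068 each held 1 count in all samples together. In the list of 4 further C/D box RNP proteins none was called (median log2 fold change 0.235), and the smallest p belonged to Nop58, the partner of NOP56, with 2897 and 3102 against 3904 and 4178 counts (log2 fold change 0.19, adjusted p = 0.568, edgeR).

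Coil, Nolc1 and Wrap53 were not called. Coil (chr11:88970252-88991613, plus strand), the structural marker of the compartment, had 8372 and 9710 counts in Tdrd6+/- and 10946 and 11647 in Tdrd6-/- cells. Scaled, these were 319.7 and 348.6 against 346.1 and 363.9 CPM, the groups overlapped, and the log2 fold change was 0.09 (SE 0.128, adjusted p = 0.848, edgeR). The row of Coil is merged with the pseudogene 2210409E12Rik, which lies inside it on the same strand. Nolc1 (chr19:46075863-46085530, plus strand) had 1083 and 1281 against 1427 and 1455 counts, or 41.4 and 45.99 against 45.1 and 45.5 CPM, with overlapping groups and a log2 fold change of 0.05 (SE 0.148, adjusted p = 0.927, edgeR). Wrap53 (chr11:69561758-69580255, minus strand) had 268 and 249 against 257 and 284 counts. Its CPM of 10.2 and 8.94 against 8.13 and 8.87 did not overlap but stood close together, with a log2 fold change of -0.17 (SE 0.215, adjusted p = 0.81, edgeR).

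Sart3 (chr5:113742446-113772510, minus strand), the factor that joins U4 and U6 snRNA again after splicing, had 1123 and 1038 counts in Tdrd6+/- and 1009 and 968 in Tdrd6-/- cells. Its CPM of 42.9 and 37.3 against 31.9 and 30.2 did not overlap. With a log2 fold change of -0.37 (SE 0.156) it missed the threshold over all genes (adjusted p = 0.269, edgeR, and 0.126 to 0.92 with a sample left out). Sart3 overlaps Gm3511 on the opposite strand.

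The members that move snRNAs between nucleus and cytoplasm were not called either. Phax, the export adaptor, had 201 and 143 counts in Tdrd6+/- and 188 and 218 in Tdrd6-/- cells, or 7.68 and 5.13 against 5.95 and 6.81 CPM. Its log2 fold change was near 0 (-0.0043, SE 0.246, adjusted p = 0.997, edgeR), its sign changed with the scaling, and the gene overlaps Aldh7a1 on the opposite strand. Tgs1 (chr4:3574875-3616619, plus strand), the cap hypermethylase, had 163 and 139 against 177 and 95 counts, or 6.22 and 4.99 against 5.597 and 2.97 CPM. The second Tdrd6-/- sample alone was low, and the log2 fold change of -0.39 (SE 0.282, adjusted p = 0.608, edgeR) was 0.00685 without that sample. Snupn (chr9:56950878-56983206, plus strand), the import adaptor, had 1367 and 1588 against 1855 and 1970 counts, or 52.2 and 57.0 against 58.7 and 61.6 CPM, and its groups did not overlap (log2 fold change 0.14, SE 0.142, adjusted p = 0.755, edgeR).

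In all, the CPM of the genotypes did not overlap for 5 of the 10 members, with Tdrd6-/- above in 2 and below in 3, while 43.4% of all genes tested did not overlap. Non-overlap of 2 samples against 2 was therefore common and is read here only beside the test.

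The 10 genes differed far more from each other than between the genotypes. Levels between genes are given per length, as CPM per kb of annotated exon, for all 4 samples together. Coil stood at 97.9 ± 5.22 (SD, n = 4; 90.8, 99.0, 98.3 and 103.4 in the single samples), above 97.12% of 15644 genes. Snupn followed at 41.2 ± 2.82, Nolc1 at 11.2 ± 0.532 and Sart3 at 6.29 ± 1.01 CPM per kb. Their sample ranges did not overlap, so that this order held in every sample.

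**Figure D4:**
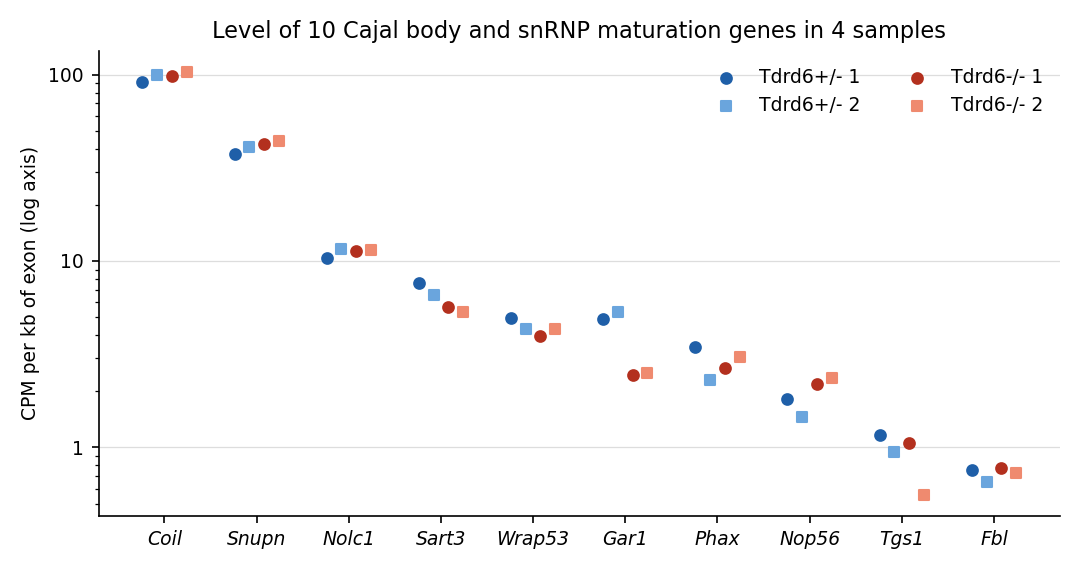
Level of the 10 genes in CPM per kb of annotated exon, on a log axis, with 1 point per sample coloured by genotype. Coil is highest at 97.9 and Fbl lowest at 0.726 on average.

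Below Sart3 the order was less firm. Wrap53 (4.39 ± 0.424), Gar1 (3.803 ± 1.53), Phax (2.88 ± 0.493) and Nop56 (1.96 ± 0.398 CPM per kb) followed, and the sample ranges overlapped between Wrap53 and Gar1, Gar1 and Phax, and Phax and Nop56. Gar1 spread most of these 4, and its genotypes differed. Tgs1 (0.931 ± 0.266) and Fbl (0.726 ± 0.055) were lowest and overlapped each other, but not Nop56. Per kb of exon the highest and the lowest level differed 135-fold. Per kb of coding sequence Coil, Snupn, Nolc1 and Sart3 kept their places, and 6 of the 10 genes kept their rank in all. Gar1 then stood above Wrap53. Fbl, with 981 bp of coding sequence in 4209 bp of exon, then stood above Tgs1 and was no longer lowest. Of the 10 members, 6 stood above the median gene per kb of exon, and Fbl, the lowest on that scale, lay above 26.61% of genes. Lengths come from GENCODE M21, whose exon segments differ in number from those counted in some members. They were 21 against 9 in Fbl, 35 against 19 in Sart3, 34 against 13 in Nolc1 and 16 against 19 in Coil. Levels per kb of these genes are therefore approximate. In Fbl the counted segments 6 to 9 also had 48 counts in all samples together and segments 1 to 5 had 692, so its level per kb may be a low estimate.

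To ask whether the members were less completely spliced in Tdrd6-/- cells, the summed intron counts of each gene were set against its gene counts. The quantity is the ratio of intronic to exonic CPM, each kind scaled to its own totals, and it was tested with edgeR as an interaction of kind of count and genotype in 15926 genes, of which 1.88% were called. No member was called, and 2 of them, Gar1 and Sart3, had an unadjusted p under 0.05 in edgeR. The share of all genes with such a p was not counted, so no excess among the members can be read from this. The median log2 difference was 0.247 over the members, with 8 above and 2 below 0 (4 above and 6 below with 1 scaling factor per sample, described below), and 0.0599 over all genes tested, with 9146 above 0. The ratio of the Tdrd6-/- samples lay above that of the controls without overlap in 6 members and below in none, beside 25.2% of all genes above and 43.2% of all genes not overlapping in either direction. These counts hold for separate factors. With 1 factor per sample the ratio follows plain intron counts per gene count. Gar1 alone then stayed above without overlap (0.836 and 0.706 against 1.02 and 0.870). Coil then lay below without overlap (0.1245 and 0.1159 against 0.1119 and 0.0931).

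**Figure D5:**
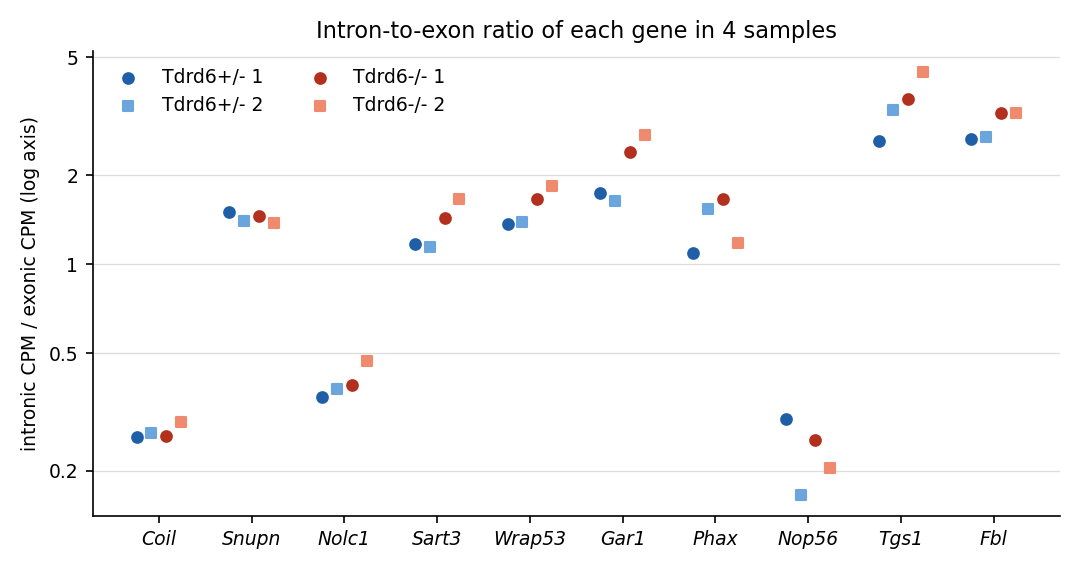
Ratio of intronic to exonic CPM of the 10 genes on a log axis, with 1 point per sample coloured by genotype. In Sart3, Wrap53, Tgs1, Nolc1, Fbl and Gar1 both Tdrd6-/- points lie above both Tdrd6+/- points, and no member passed the test. The scale is that of separate factors for introns and exons. With 1 factor per sample Nolc1 and Fbl turn to log2 differences of -0.0813 and -0.0115. Of the genes named here, Gar1 alone then keeps its genotypes apart.

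Gar1 showed the largest value of the members. Its ratio was 1.75 and 1.63 in Tdrd6+/- and 2.39 and 2.73 in Tdrd6-/- cells, a log2 difference of 0.59 (SE 0.228, adjusted p = 0.25, edgeR). Sart3 had 1.17 and 1.14 against 1.43 and 1.67, a difference of 0.41 (SE 0.161, adjusted p = 0.263, edgeR). With a sample left out the difference of Sart3 ranged from 0.31 to 0.52, the latter without the first Tdrd6-/- sample. Such fits leave a lone sample in 1 genotype. In both genes the gene count was lower in Tdrd6-/- cells, and the ratio has this count as its denominator.

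Wrap53 (1.36 and 1.39 against 1.67 and 1.84), Tgs1 (2.60 and 3.33 against 3.62 and 4.47), Fbl (2.64 and 2.68 against 3.25 and 3.24) and Nolc1 (0.356 and 0.378 against 0.390 and 0.469) also had both Tdrd6-/- samples above the controls. Their log2 differences were 0.34, 0.43, 0.28 and 0.21, with adjusted p of 0.553, 0.482, 0.735 and 0.687 (edgeR). Coil (0.260 and 0.268 against 0.262 and 0.292), Phax (1.09 and 1.54 against 1.66 and 1.18), Snupn (1.503 and 1.395 against 1.45 and 1.37) and Nop56 (0.300 and 0.166 against 0.255 and 0.204) overlapped. Scaling matters here, because the share of fragments on introns differed between samples. With 1 scaling factor per sample in place of 1 per kind of count, the median over all genes went to -0.232, and the calls from 114 up and 186 down to 8 up and 223 down. The median of the members was then -0.0464, with 4 above and 6 below 0, and its distance from that of all genes was not tested. Gar1 stood at 0.30 and Sart3 at 0.11, and Coil, Phax, Nolc1 and Fbl turned to negative values. The genotypes of Sart3, Wrap53, Tgs1, Nolc1 and Fbl then overlapped.

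How much intronic signal each gene carried differed widely. Per kb and over all samples the intron density was 2.17% of the exon density in Coil and 2.62% in Snupn, 5.34% in Phax, 7.98% in Wrap53, 11.3% in Nolc1, 12.7% in Sart3, 20.6% in Tgs1 and 29.9% in Gar1. The values of Nop56 (49.8%) and Fbl (95.5%) may be raised by long annotated exons with few counts, which was not tested. Intron lengths also come from GENCODE M21, whose introns differ in number from those counted in some members. They were 5 against 8 in Nop56, 7 against 8 in Fbl, 17 against 18 in Sart3 and 11 against 12 in Nolc1. The percentages of these genes are therefore approximate. Coil and Snupn, the most abundant transcripts per kb of exon, had the lowest intron density relative to their exons. Exon density is the denominator of this percentage, so a high level itself lowers it. A large share often came from 1 intron: intron 007 of Wrap53, 13678 bp long at chr11:69563948-69577625, held 70.3% of the intron counts of its gene, intron 001 of Snupn 49.8% and intron 001 of Fbl 49.2%.

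Usage asks whether an intron, exon segment or junction took a larger or smaller share of its gene's counts. It was tested with likelihood ratio tests in DESeq2 after the models of DEXSeq and JunctionSeq, at a false discovery rate of 0.1. Over all genes 2.17% of 26407 introns and 0.221% of 147710 exon segments and junctions were called, and no feature of the 10 members was, either in DESeq2 or with edgeR's usage test. An unadjusted p under 0.05 was found for 1 intron and 1 exon segment of the members in DESeq2, both given below. How many features of all genes had such a p was not counted. Depth limits the usage tests, since of the members' features only 9 introns, 48 exon segments and 14 junctions passed the filter on the mean count (95.2 for introns, 53.4 for exons and junctions), while 78 introns, 55 segments and 58 junctions lay below it and the rest had under 10 counts or belonged to merged rows.

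The intron nearest to a call was intron 001 of Snupn, with 467 and 436 counts in Tdrd6+/- and 603 and 463 in Tdrd6-/- cells. Its share of the Snupn intron counts was 46.5 ± 1.31% against 53.1 ± 1.01% (SD, n = 2 each), and the groups of shares did not overlap. The log2 difference was 0.38 (SE 0.179, adjusted p = 0.398, DESeq2). Intron 018 of Sart3 had 143 and 107 against 103 and 93 counts (log2 difference -0.41, adjusted p = 0.59, DESeq2), intron 006 of Coil 95 and 103 against 131 and 122 (0.29, adjusted p = 0.753), and intron 007 of Wrap53 119 and 104 against 140 and 110 (0.19, adjusted p = 0.926). The most covered introns of the other members were not tested or lay below the filter. They had 67 and 59 against 64 and 41 counts in Tgs1, 31 and 26 against 37 and 15 in Phax, 53 and 43 against 63 and 56 in Fbl, 43 and 51 against 57 and 41 in Nolc1 and 11 and 7 against 6 and 7 in Nop56. In Coil the most covered intron was 008, with 230 and 274 against 313 and 256 counts.

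Among exon segments the smallest p of a member was that of E016 of Sart3, with 110 and 117 counts in Tdrd6+/- and 84 and 66 in Tdrd6-/- cells (log2 difference -0.52, adjusted p = 1, DESeq2). Segment E014 of Gar1 had 68 and 73 against 28 and 43 counts, which was 29.8% against 26.1% of the gene count on average and a log2 difference of usage of -0.26 (adjusted p = 1, DESeq2). This segment thus fell with its gene and not detectably more. Segment E014 of Wrap53 had 96 and 95 against 84 and 84 counts (-0.38, adjusted p = 1, DESeq2), E004 of Fbl 55 and 49 against 55 and 62 (-0.44, adjusted p = 1), and E005 of Phax 112 and 87 against 110 and 136 (0.15, adjusted p = 1). The segments with the smallest p in the more abundant members were E002 of Snupn, with 274 and 331 against 403 and 481 counts (0.22, adjusted p = 1, DESeq2), and E004 of Nolc1, with 181 and 248 against 230 and 227 (-0.23, adjusted p = 1). Of the junctions, J016 of Snupn had 100 and 137 against 186 and 177 counts (0.27, adjusted p = 1, DESeq2) and J016 of Nolc1 had 70 and 102 against 97 and 80 (-0.25, adjusted p = 1).

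The row of Coil was left out of this test because it is merged with a pseudogene. With merged rows kept, a setting added after seeing the data, 0.253% of features were called and 17 features of Coil were tested without a call. Segment E017 of Coil had 1475 and 1528 against 1631 and 1776 counts (log2 difference -0.17, adjusted p = 1, DESeq2). Junction J028 of Coil had 853 and 784 counts in Tdrd6+/- and 858 and 932 in Tdrd6-/- cells (log2 difference -0.21, adjusted p = 1, DESeq2). Most Coil counts came from the same part of the gene in both genotypes: segments 10 to 19 had 14609 and 16519 against 18483 and 19599 counts, and segments 1 to 9 had 172 and 216 against 191 and 216. An unannotated junction, N030, carried 51 and 65 against 64 and 61 counts, beside the 3345 and 3827 against 4279 and 4359 of junctions 24 to 29. The unannotated junctions of Nolc1, 2 in number, had 72 and 83 against 90 and 93 counts.

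The wider pathway was read from 54 further genes in 7 lists, all of which passed the filter. None was called higher and 1, Naf1, was called lower, beside the background of 4.8%. The lists besides the H/ACA and C/D proteins had median log2 fold changes near 0: 0.0127 for 7 snoRNP assembly factors, 0.0175 for 5 genes of snRNA export and import, -0.0088 for 8 of snRNA transcription, -0.0296 for 14 Integrator subunits and -0.0396 for 11 other proteins of Cajal or histone locus bodies. No gene of these 5 lists was called by edgeR or by DESeq2. In edgeR 6 had an unadjusted p under 0.05: Ice1, Ints8, Ints9, Npat, Mepce and Tcof1. All 6 were lower in Tdrd6-/- cells, with log2 fold changes from -0.48 to -0.29. In all 7 lists 8 genes had such a p, the others being Naf1, which was lower, and Nop10, which was higher. The share of all genes tested with such a p was not counted, so no excess can be read from these numbers. Calls over all genes also leaned lower (3.78% lower and 1.02% higher).

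Of the export and import genes, Xpo1, the receptor that PHAX recruits, had the smallest p, with 8651 and 7718 counts in Tdrd6+/- and 8660 and 7862 in Tdrd6-/- cells (log2 fold change -0.23, adjusted p = 0.495, edgeR). Ice1, a subunit of the little elongation complex of snRNA genes, had 1001 and 775 against 866 and 666 counts (-0.45, adjusted p = 0.24, edgeR). Its value rested on single samples: it was -0.66 (adjusted p = 0.063, edgeR) without the second Tdrd6+/- sample, -0.67 (0.129) without the first Tdrd6-/- sample, -0.20 (0.784) without the first Tdrd6+/- sample and -0.26 (1) without the second Tdrd6-/- sample. Ints9, of the cleavage module of Integrator, had 690 and 854 against 664 and 640 counts (-0.48, adjusted p = 0.159, edgeR). Tcof1, a nucleolar relative of NOLC1, had 1337 and 1645 against 1429 and 1345 (-0.34, adjusted p = 0.292, edgeR), and Pih1d1, a snoRNP assembly factor, had 3519 and 4257 against 4910 and 5521 (0.19, adjusted p = 0.588, edgeR).

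In the test of the intron-to-exon ratio 53 of these genes entered, and Naf1 was again the gene called. Its ratio was 2.08 and 1.81 in Tdrd6+/- and 2.82 and 3.19 in Tdrd6-/- cells, without overlap and with a log2 difference of 0.62 (SE 0.168, adjusted p = 0.0646, edgeR). With 1 scaling factor per sample the difference was 0.33 (adjusted p = 0.735, edgeR), and with a sample left out the adjusted p ranged from 0.0124 to 0.365. The gene count of Naf1 is the denominator here too.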

How the data were processed

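Total RNA of 2 Tdrd6+/- and 2 Tdrd6-/- samples of hCD4+ cells from 20 dpp testes, depleted of ribosomal RNA, was made into directional libraries. The authors demultiplexed the reads (bcl2fastq 1.8.4 in the submitters' processing notes), aligned them with GSNAP to mm10 with Ensembl annotation and deposited raw counts per gene, exon segment, junction and intron, without normalization. The counting program, and whether it used strand, are not given in the sources used here. Tallies that name no feature were left out of all tests and library sizes.

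Gene expression was compared by the quasi-likelihood test of edgeR 4.0.16 after filterByExpr and TMM scaling, with Benjamini-Hochberg adjustment over all genes tested. The intron-to-exon ratio was tested in edgeR on genes with at least 10 counts of each kind. Standard errors beside edgeR values were derived as the absolute log2 change divided by the square root of the F statistic. The study used DEXSeq and JunctionSeq, which were not installed. Models of the same form were run in R 4.3.3 through DESeq2 1.42.0 on features with at least 10 counts, leaving out merged rows for exons and junctions. The scripts were tested on simulated data with changes planted only in features of high mean count. That test does not cover the many member features with few counts. The 10 genes and all lists were chosen with earlier results of these data known. Text names all 10 genes, per member and kind of feature the one with the smallest p, the most covered intron, and the pathway gene with the smallest p per list. Positions come from GENCODE M21 on mm10, matched by order of the features. Nothing says whether same-numbered samples are paired, and p-values measure the spread between these pooled samples, which differed within a genotype by more than counting noise (chi-square per degree of freedom 13.72 and 12.29). Alternatives were other tools, scalings, filters and rates, a replicate block, and leaving out each sample.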

Additional observations from a re-analysis of the deposited data

How the results depend on the processing

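Gene calls numbered 794, and 1 of the 10 members was called, Gar1. Without the filter on low counts there were 75 gene calls and 0 members, with DESeq2 727, and with a sample left out 257 to 1064, with Gar1 called each time. A left-out sample leaves a lone sample, which is assumed to vary like the others. Ratio calls went from 300 to 170 at a rate of 0.05, to 121 with crossed pairing, and to 59 to 1127 with a sample left out, with 0 to 1 members. Intron calls went from 574 to 881 with the replicate block, 220 without independent filtering, 1284 with the exonic count as reference, 2 with edgeR's usage test, 338 at a rate of 0.05 and 4 to 1174 with a sample left out. Exon and junction calls went from 327 to 80 with edgeR's usage test and 51 to 762 with a sample left out, and no member feature was called in either. Same-numbered samples share only a number: the correlation of their deviations was -0.108 over 12347 genes and 0.0498 over 44784 introns. The replicate block gave 1046 gene, 311 ratio and 304 exon and junction calls, with the same members called. Crossed pairing, chosen after seeing the data as was keeping merged rows (403 exon and junction calls), gave 1175, 121 and 279. Per coding length 6 members kept their rank of level. The log2 fold change of Phax turned to 0.0094 with DESeq2, 0.0043 with DESeq2's size factors, 0.022 without the filter, 0.0166 with the block and 0.0151 with crossed pairing. With 1 scaling factor per sample the ratio turned in Coil (-0.234), Phax (-0.17), Nolc1 (-0.0813), Fbl (-0.0115), Pih1d1 (-0.097), Xpo1 (-0.0713), Ice1 (-0.0217) and Ints9 (-0.0502). With the exonic reference intron usage turned in Sart3 018 (0.0974), Nolc1 001 (0.068), Gar1 003 (0.481), Tgs1 001 (0.199) and Fbl 001 (0.285). With a sample left out, expression ranged across 0 in Tgs1 (-0.916 to 0.00685), Phax (-0.265 to 0.325), Nolc1 (-0.0103 to 0.133), Fbl (-0.0024 to 0.223) and Nhp2 (-0.104 to 0.406), and the ratio in Coil (-0.0128 to 0.14), Phax (-0.132 to 0.369), Snupn (-0.097 to 0.0098), Nop56 (-0.383 to 0.461) and Ints9 (-0.0052 to 0.494), as did the usage of introns Wrap53 007 (-0.171 to 0.558), Nolc1 001 (-0.426 to 0.0089) and Fbl 001 (-0.328 to 0.332) and of segments E005 of Phax (-0.0186 to 0.286) and E014 of Gar1 (-0.666 to 0.0975). The cause of these changes was not tested. Low counts limit the usage tests, since most member features lay below the filter.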
